A study of Mus musculus with 10 samples.

Results

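The genes described here encode the machinery with which the endoplasmic reticulum (ER) takes in, folds, glycosylates and quality-controls proteins, together with the sensors of the unfolded protein response. They are 45 genes chosen by symbol, out of 19937 genes measured, and all 45 had at least 1 probe set carrying their symbol alone (48 of 21640 such probe sets). Expression was measured in B220+CD22+ B cells sorted from mouse spleen, on 10 Affymetrix Mouse Gene 1.0 ST arrays, all labelled with the strain background CBAxC57BL/6J. The delta group (4 arrays) came from Sca1-Bcl6(delta) mice, made by crossing the transgenic mice to mb1-Cre, a Cre expressed from the Cd79a locus in the B lineage. The floxed group (3 arrays) came from Sca1-Bcl6(floxed) mice, in which a Bcl6-IRES-eGFP cassette between loxP sites was placed in a Sca1 (Ly6a) vector. The third group (3 arrays) was wild-type. The labels give the group of each array but no age. Within the delta and floxed groups they do not say which transgenic line an array came from. Nor do they say whether arrays differ by animal, so p-values measure the spread between these arrays.

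Proteins bound for the cell surface or for secretion enter the ER through the Sec61 channel, lose their signal peptide, receive N-linked glycans and fold with the help of chaperones and disulfide isomerases. Chains that fail to fold are sent back to the cytosol for ER-associated degradation (ERAD). When unfolded chains build up, the sensors ATF6, IRE1 (Ern1) and PERK (Eif2ak3) raise the transcription of chaperone and ERAD genes and lower general translation. B cells expand this system when they become antibody-secreting plasma cells.

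Many genes of this response carry the ER stress response element (ERSE) in their promoter, to which ATF6 binds together with NF-Y. It was searched here as CCAAT and CCACG with 9 bases of any kind between them, on both strands, in RefSeq windows from 250 bases before to 50 bases after each annotated start (build GRCm38.p6). Of the 45 genes 37 had such a window, 42 windows in all, and 8 genes had none in that table. The exact ERSE letters were present in 9 of the 42 windows (21.4%), each of a different gene, against 39 of 32851 windows of all genes (0.119%). The 9 genes were Hspa5, Hsp90b1, Calr, Canx, Dnajc3, Pdia6, Creld2, Derl3 and Syvn1. The shorter ERSE-II, searched as ATTGG and CCACG with 1 base between them, was in the windows of Herpud1 and Dnajb11 and in 0.0365% of all windows. The UPRE letters TGACGTGG were in 0 of the 42 windows and 0.676% of all windows. A C/EBP-ATF composite searched as TGATGNAA was in that of Herpud1 alone among these genes and in 3.97% of all windows. A match is a description of letters and not a binding site.

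The promoters printed next are those of 5 ERSE-bearing chaperone and isomerase genes taken up in the results, and that of P4hb, the one gene of the 45 past the test threshold, which held none of the 4 motifs. Each is the 250 bases before the start, written 5′ to 3′ on the gene's strand, with ERSE matches in capitals. A match on the opposite strand reads as its reverse complement. The windows lie at chr2:34771840-34772089 for Hspa5 (plus strand), chr10:86705445-86705694 for Hsp90b1 (minus strand), chr8:84846932-84847181 for Calr (minus strand), chr12:17266339-17266588 for Pdia6 (plus strand), chr15:88819396-88819645 for Creld2 (plus strand) and chr11:120573254-120573503 for P4hb (minus strand). The single exact ERSE match of Hspa5 begins 65 bases before the start, and Hsp90b1 holds 2 exact matches, beginning 212 and 107 bases before it. Inexact copies were not searched for.
Hspa5: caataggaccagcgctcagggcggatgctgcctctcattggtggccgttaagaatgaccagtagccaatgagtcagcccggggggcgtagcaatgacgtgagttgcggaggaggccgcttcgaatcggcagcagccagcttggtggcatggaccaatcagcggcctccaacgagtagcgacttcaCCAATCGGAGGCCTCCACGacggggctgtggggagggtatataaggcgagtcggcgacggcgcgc
Hsp90b1: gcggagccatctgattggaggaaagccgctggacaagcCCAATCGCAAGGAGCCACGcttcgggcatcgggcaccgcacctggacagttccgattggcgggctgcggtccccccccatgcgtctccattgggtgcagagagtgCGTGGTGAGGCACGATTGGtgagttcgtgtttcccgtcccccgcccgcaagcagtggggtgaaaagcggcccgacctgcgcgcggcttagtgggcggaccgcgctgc
Calr: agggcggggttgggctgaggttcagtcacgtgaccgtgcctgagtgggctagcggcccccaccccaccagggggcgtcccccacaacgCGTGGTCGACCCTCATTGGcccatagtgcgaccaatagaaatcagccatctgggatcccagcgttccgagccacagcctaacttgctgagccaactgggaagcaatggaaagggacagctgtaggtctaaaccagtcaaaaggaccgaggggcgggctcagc
Pdia6: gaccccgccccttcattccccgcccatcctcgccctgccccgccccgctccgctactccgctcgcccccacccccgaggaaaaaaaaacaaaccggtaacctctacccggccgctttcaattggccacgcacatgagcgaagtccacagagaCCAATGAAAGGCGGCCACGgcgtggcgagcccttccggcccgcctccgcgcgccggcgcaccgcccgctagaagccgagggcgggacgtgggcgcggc
Creld2: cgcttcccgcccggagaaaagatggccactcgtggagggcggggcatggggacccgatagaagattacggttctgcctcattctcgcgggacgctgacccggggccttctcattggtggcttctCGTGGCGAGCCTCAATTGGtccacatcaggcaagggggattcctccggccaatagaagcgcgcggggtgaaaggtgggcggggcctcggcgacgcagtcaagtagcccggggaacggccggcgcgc
P4hb: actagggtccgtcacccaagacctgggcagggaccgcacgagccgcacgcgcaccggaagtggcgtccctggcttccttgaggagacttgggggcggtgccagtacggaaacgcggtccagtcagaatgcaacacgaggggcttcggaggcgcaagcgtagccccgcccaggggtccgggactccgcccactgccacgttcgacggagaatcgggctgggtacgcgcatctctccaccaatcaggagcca

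The arrays were alike in overall intensity, with medians of 139 to 145, and correlated across genes at 0.993 to 0.997 within groups and 0.989 to 0.996 between groups. The B cell label was borne out by its markers: 9 of 10 B cell genes were measured, with a mean log2 level of 12.82 to 12.93 in delta, 12.91 to 13.01 in floxed and 12.92 to 12.99 in wild-type arrays. Uty, Kdm5d and Eif2s3y, which are Y-linked, and Xist gave a male pattern in delta 1 and in all 3 floxed arrays, and a female pattern in delta 2, 3 and 4 and in all 3 wild-type arrays. Sex pattern and genotype therefore cannot be told apart in floxed against wild-type. In delta against floxed they largely coincide as well, since only delta 1 shares the male pattern of the floxed arrays. Bcl6 itself had log2 levels of 9.56 to 9.83 in delta, 9.80 to 9.96 in floxed and 9.80 to 10.48 in wild-type arrays, and Cd79a, the locus of the Cre, fell in delta against wild-type (-0.48, adjusted p = 0.0427). That call held in 10 of 21 alternative fits (adjusted p 0.00359 to 0.211) and was lost, among others, without delta 1 or 3, floxed 1 or 3, or wild-type 1 or 2.

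Floxed against wild-type B cells asked what accompanies the intact transgene. Of the 45 genes 1 rose and 0 fell in limma at an adjusted p under 0.05, and 44 did not pass, beside 0.552% of all genes past that threshold in either direction. At an unadjusted p under 0.05, 11 genes were higher (24.4%) and 2 lower (4.44%), where 6.14% and 6.63% of all genes were. Levels of 13 genes lay above the wild-type range in every floxed array (28.9%) and of 4 below it (8.89%), against 7.60% and 9.13% of all genes. The median log2 difference of the 45 was 0.13, with 35 above 0, while the median over all genes was -0.02 and 41.9% of them were above 0. Differences lay between -0.23 for Eif2ak3 and 0.78 for Ppp1r15a. The list's 45 genes were chosen with earlier results of these arrays known, so these counts are a description.

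Delta against wild-type B cells asked what remains after Cre. None of the 45 genes passed limma's threshold (0 of 45), beside 0.0752% of all genes, and 6 were higher and 1 lower at an unadjusted p under 0.05 (13.3% and 2.22%, against 3.46% and 4.44% of all genes). Only Hspa5, Dnajb9, P4hb and Ppp1r15a lay above the wild-type range in every delta array (8.89%, against 3.75% of all genes), and 0 lay below it (5.50% of all genes). The median difference was 0.04, beside -0.01 for all genes, with 27 of 45 genes above 0, against 43.6% of all genes. In delta against floxed arrays, which share the floxed arrays with the first comparison, again 0 of 45 passed limma's threshold, beside 0.00502% of all genes. Here 7 genes were lower and 1 higher at an unadjusted p under 0.05 (15.6% and 2.22%, against 3.20% and 3.22% of all genes), and the median was -0.08, beside 0.0045. Of the 45 genes 9 were above 0, against 52.1% of all genes, and 0 lay above the floxed range in every delta array (3.36% of all genes). Levels of P4hb, Sec61a1, Ssr3 and Ddost lay below the floxed range in every delta array (8.89%, against 3.61% of all genes).

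**Figure D1:**
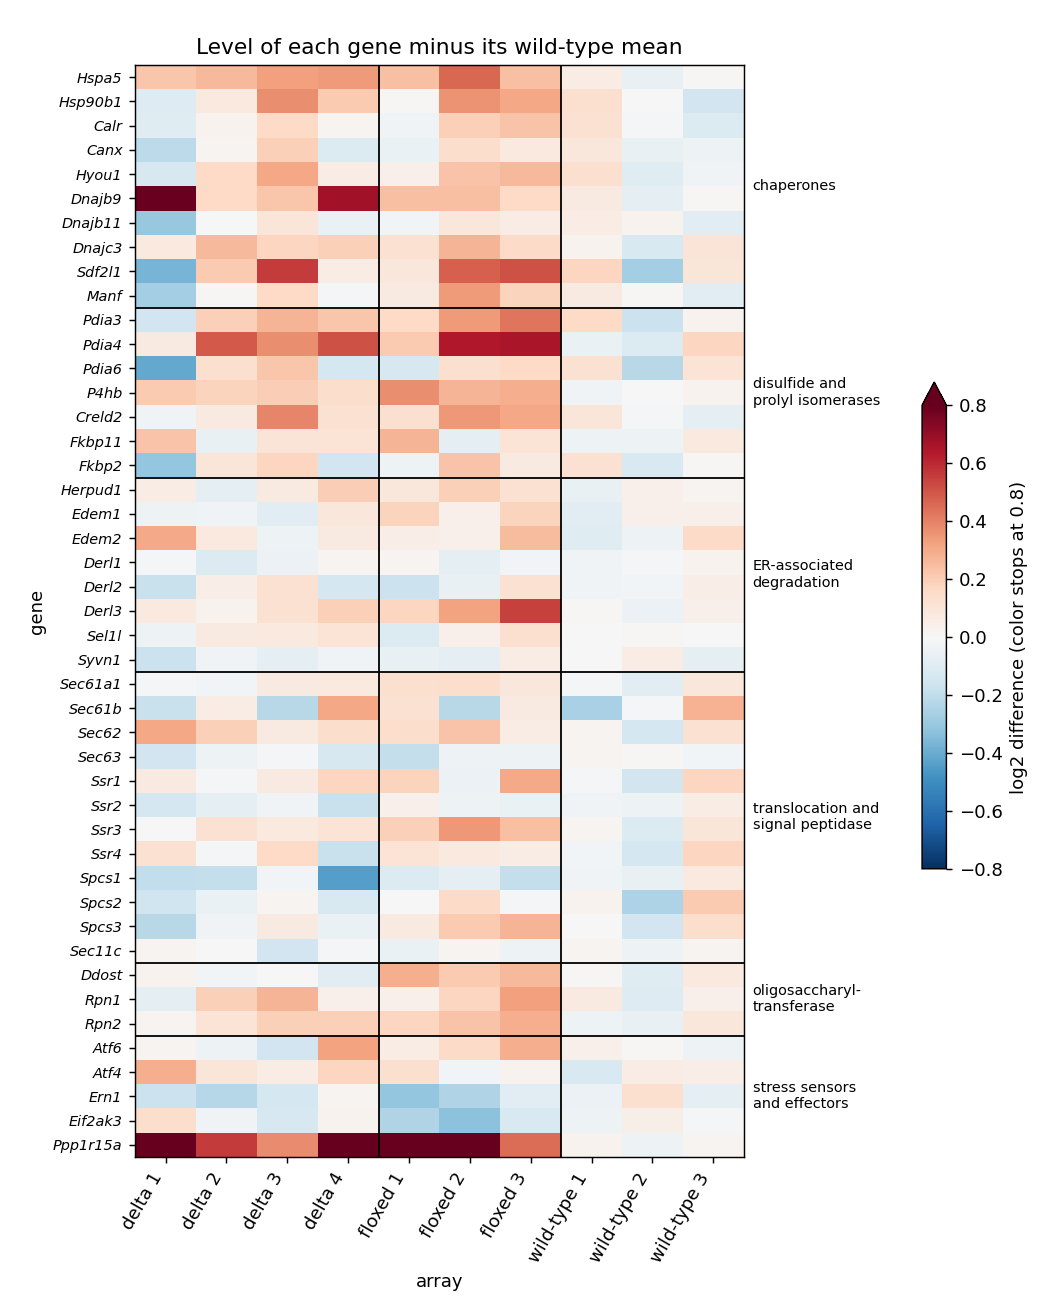
Log2 RMA level of each of the 45 genes (rows, by role) minus its mean over the 3 wild-type arrays, for the 10 arrays (columns: delta, floxed, wild-type). Red is above the wild-type mean and blue below it, and the color stops at 0.8, which Ppp1r15a passes in delta 1 and 4 and floxed 1 and 2 and Dnajb9 comes close to.

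Of the 10 chaperone genes all 10 had a floxed mean above the wild-type mean, against 41.9% of all genes. Their median difference was 0.19. Of these 10 genes 2 were higher at an unadjusted p under 0.05, against 6.14% of all genes, and 0 passed the adjusted threshold. Hspa5, which encodes BiP, the central Hsp70 of the ER and the binding partner that keeps the stress sensors inactive, had log2 levels of 12.21, 12.25, 12.32 and 12.33 in delta arrays, 12.23, 12.45 and 12.23 in floxed arrays and 12.05, 11.93 and 12.002 in wild-type arrays. All 7 transgenic arrays lay above all 3 wild-type arrays. The log2 difference of Hspa5 was 0.31 (SE 0.07, 95% CI 0.15 to 0.47, adjusted p = 0.0963) in floxed and 0.28 (SE 0.07, 95% CI 0.13 to 0.44, adjusted p = 0.219) in delta against wild-type, and -0.02 (adjusted p = 0.972) in delta against floxed. Without delta 1, the male-pattern delta array, the delta difference of Hspa5 was 0.31 (adjusted p = 0.383), which compares arrays of female pattern only.

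Dnajb9 (ERdj4), a cofactor that recruits BiP to the sensor IRE1 and to misfolded chains, had log2 levels of 11.01, 10.38, 10.44 and 10.89 in delta arrays, 10.46, 10.46 and 10.38 in floxed arrays and 10.29, 10.15 and 10.23 in wild-type arrays. Delta 1 and 4 stood above every other array, and delta 2 and 3 lay at the levels of the floxed arrays. Its differences from wild-type were 0.46 (SE 0.14, 95% CI 0.16 to 0.75, adjusted p = 0.376) in delta and 0.21 (adjusted p = 0.587) in floxed arrays, the second turning to -0.23 (adjusted p = 0.858) with the sex pattern as a covariate. The effect of that covariate comes from delta 1 against the other delta arrays, and delta 1 had the highest Dnajb9 level. Dnajc3 (p58IPK), another J-domain partner of BiP, had 9.86, 10.04, 9.95 and 9.97 in delta arrays, 9.90, 10.05 and 9.93 in floxed arrays and 9.81, 9.66 and 9.88 in wild-type arrays. Its differences were 0.18 (adjusted p = 0.352) in floxed and 0.17 (adjusted p = 0.581) in delta against wild-type, and the delta range overlapped the wild-type range.

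The Hsp90 of the ER and the lectin chaperone calreticulin were less separated. Hsp90b1 (GRP94) had log2 levels of 11.53, 11.71, 12.001 and 11.84 in delta arrays, 11.64, 11.99 and 11.94 in floxed arrays and 11.76, 11.63 and 11.48 in wild-type arrays. Calr had 11.57, 11.70, 11.83 and 11.69 in delta arrays, 11.64, 11.86 and 11.90 in floxed arrays and 11.79, 11.66 and 11.56 in wild-type arrays. In both genes each of the 3 groups overlapped the others, and the floxed minus wild-type differences were 0.23 (adjusted p = 0.485) and 0.13 (adjusted p = 0.598). Manf, a secreted cofactor of BiP, had 8.16, 8.44, 8.59 and 8.42 in delta arrays, 8.50, 8.77 and 8.61 in floxed arrays and 8.50, 8.44 and 8.34 in wild-type arrays. Delta 1 was lowest for Manf and floxed 2 highest, with a difference of -0.22 (adjusted p = 0.775) in delta against floxed. The other 4 chaperone genes, Canx, Hyou1, Dnajb11 and Sdf2l1, had floxed minus wild-type differences of 0.04 to 0.36 and overlapping groups.

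The 7 genes of disulfide formation, disulfide isomerization and prolyl isomerization included the one called gene. P4hb, which encodes protein disulfide isomerase and also serves as a subunit of prolyl 4-hydroxylase, had log2 levels of 10.21, 10.18, 10.20 and 10.14 in delta arrays, 10.37, 10.27 and 10.29 in floxed arrays and 9.97, 10.001 and 10.03 in wild-type arrays. The 3 groups did not overlap, with floxed highest, delta between and wild-type lowest. P4hb rose in floxed against wild-type by 0.31 (SE 0.06, 95% CI 0.18 to 0.43, adjusted p = 0.0439), a 1.24-fold difference. Its differences were 0.18 (SE 0.05, 95% CI 0.06 to 0.30, adjusted p = 0.370) in delta against wild-type and -0.13 (SE 0.05, 95% CI -0.25 to -0.01, adjusted p = 0.756) in delta against floxed. Across 21 alternative fits the floxed minus wild-type difference of P4hb stayed between 0.27 and 0.33, but its adjusted p lay between 0.0217 and 0.635 and passed the threshold in 6. It did not pass with any single floxed or wild-type array left out, nor without delta 1, 2 or 3, nor with the sex pattern as a covariate (0.27, adjusted p = 0.635).

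Pdia4 (ERp72), a thioredoxin-domain oxidoreductase, had log2 levels of 11.55, 11.97, 11.85 and 11.99 in delta arrays, 11.69, 12.12 and 12.13 in floxed arrays and 11.43, 11.37 and 11.65 in wild-type arrays. Floxed 2 and 3 stood highest, while floxed 1 and delta 1 lay near the upper end of wild-type. Its differences were 0.50 (SE 0.14, 95% CI 0.19 to 0.81, adjusted p = 0.150) in floxed and 0.36 (adjusted p = 0.504) in delta against wild-type. A second Pdia4 probe set of lower signal gave differences of 0.15 and 0.02. Pdia3 (ERp57), which works with calnexin and calreticulin on glycoproteins, had 10.91, 11.25, 11.33 and 11.28 in delta arrays, 11.22, 11.40 and 11.49 in floxed arrays and 11.22, 10.89 and 11.09 in wild-type arrays. Floxed 1 shared its level with wild-type 1, so the groups touched, and the floxed minus wild-type difference was 0.31 (adjusted p = 0.319). Creld2, Pdia6 and Fkbp2 differed by 0.26, 0.05 and 0.09, none past the threshold. Fkbp11, a prolyl isomerase gene that is strongly expressed in plasma cells, had 6.87, 6.58, 6.74 and 6.75 in delta arrays, 6.91, 6.56 and 6.75 in floxed arrays and 6.60, 6.60 and 6.72 in wild-type arrays. No group stood apart, and the difference was 0.10 (adjusted p = 0.706) in floxed against wild-type.

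**Figure D2:**
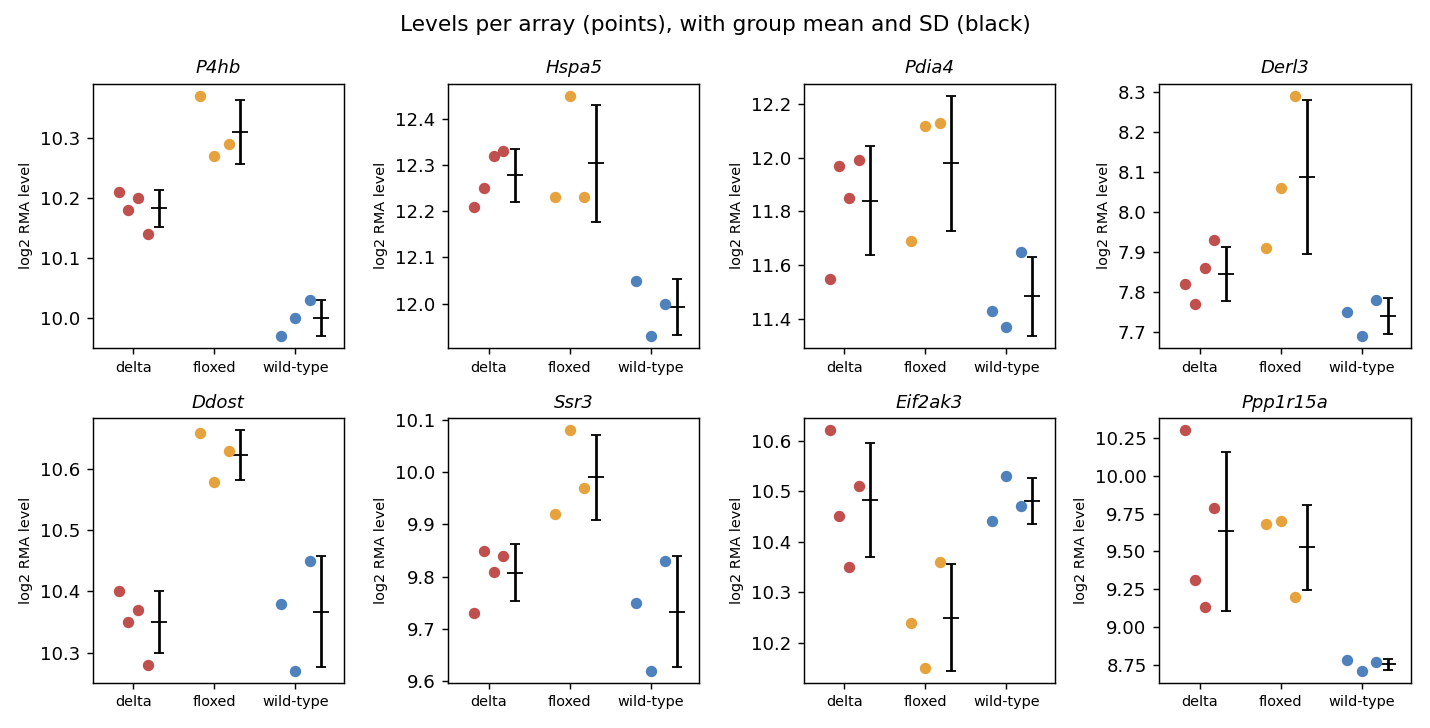
Log2 RMA level of 8 of the genes in each array (colored points, 1 per array) by group (delta, floxed, wild-type), with the group mean and SD in black; the vertical axes differ in range. P4hb separates into 3 non-overlapping groups, Hspa5 and Ppp1r15a separate transgenic from wild-type arrays, and Ddost and Ssr3 separate floxed arrays from the other groups.

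Among the 8 ERAD genes 1 was higher at an unadjusted p under 0.05 in floxed against wild-type (12.5%, against 6.14% of all genes). The adjusted threshold was passed by 0, and the median was 0.07. Derl3, a derlin of the retrotranslocation complex that is induced by ER stress, had log2 levels of 7.82, 7.77, 7.86 and 7.93 in delta arrays, 7.91, 8.06 and 8.29 in floxed arrays and 7.75, 7.69 and 7.78 in wild-type arrays. Floxed arrays lay above all wild-type arrays and overlapped delta at 1 array, with differences of 0.35 (SE 0.09, 95% CI 0.15 to 0.54, adjusted p = 0.113) in floxed against wild-type and -0.24 (adjusted p = 0.721) in delta against floxed. Its relatives Derl1 and Derl2 had differences of -0.02 (adjusted p = 0.933) and -0.03 (adjusted p = 0.918) in floxed against wild-type. Herpud1, an ER membrane protein of the HRD1 ligase complex, had 11.31, 11.18, 11.32 and 11.45 in delta arrays, 11.34, 11.44 and 11.37 in floxed arrays and 11.19, 11.29 and 11.27 in wild-type arrays. Floxed arrays lay just above wild-type (0.13, adjusted p = 0.486), and delta arrays spanned both. Edem1, which extracts glycoproteins from the folding cycle, had 10.73, 10.74, 10.68 and 10.86 in delta arrays, 10.95, 10.81 and 10.95 in floxed arrays and 10.68, 10.81 and 10.81 in wild-type arrays. Its largest difference was -0.15 (adjusted p = 0.775) in delta against floxed. Sel1l and Syvn1, the HRD1 adaptor and ligase, and Edem2 had differences between -0.02 and 0.11 in floxed against wild-type.

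Translocation and signal peptide cleavage were covered by 12 genes, of which 7 had a floxed mean above wild-type (58.3%, against 41.9% of all genes) and 5 below. Their median was 0.06, and 0 passed the threshold. Ssr3, the gamma subunit of the translocon-associated TRAP complex, had log2 levels of 9.73, 9.85, 9.81 and 9.84 in delta arrays, 9.92, 10.08 and 9.97 in floxed arrays and 9.75, 9.62 and 9.83 in wild-type arrays. All floxed arrays lay above all others, with differences of 0.26 (SE 0.07, 95% CI 0.10 to 0.41, adjusted p = 0.154) against wild-type and -0.18 (adjusted p = 0.733) in delta against floxed. The other TRAP subunits did not share this, with floxed minus wild-type differences of 0.14 for Ssr1, -0.01 for Ssr2 and 0.08 for Ssr4. Ssr2 had 10.36, 10.42, 10.47 and 10.32 in delta arrays, 10.54, 10.46 and 10.45 in floxed arrays and 10.47, 10.46 and 10.56 in wild-type arrays.

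Sec61a1, the pore of the channel, had log2 levels of 11.09, 11.08, 11.17 and 11.18 in delta arrays, 11.23, 11.24 and 11.19 in floxed arrays and 11.09, 11.01 and 11.19 in wild-type arrays. Floxed arrays were all above delta arrays and touched wild-type 3, with differences of 0.12 (adjusted p = 0.473) in floxed against wild-type and -0.09 (adjusted p = 0.847) in delta against floxed. Sec62, which serves post-translational entry, had 9.60, 9.48, 9.36 and 9.43 in delta arrays, 9.43, 9.52 and 9.35 in floxed arrays and 9.31, 9.15 and 9.41 in wild-type arrays. Its difference was 0.17 (adjusted p = 0.641) in delta against wild-type, while its partner Sec63 was at -0.09 (adjusted p = 0.811). Sec61b was represented by 3 probe sets, with floxed minus wild-type differences of -0.01 in the brightest, 0.05 and 0.28. In the same order, their delta minus floxed differences were 0.0002, -0.10 and -0.68. The last of these probe sets was dim, with a mean log2 level of 5.53.

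The signal peptidase subunits differed among themselves as well. Spcs1 had 9.59, 9.60, 9.77 and 9.35 in delta arrays, 9.68, 9.71 and 9.60 in floxed arrays and 9.76, 9.73 and 9.87 in wild-type arrays. It was the gene with the lowest delta minus wild-type difference, -0.21 (adjusted p = 0.591). Spcs3 had 9.78, 9.97, 10.07 and 9.95 in delta arrays, 10.07, 10.21 and 10.27 in floxed arrays and 9.996, 9.85 and 10.14 in wild-type arrays. Floxed was its highest group, with -0.24 (adjusted p = 0.731) in delta against floxed. Spcs2 was at 0.05 (adjusted p = 0.895) in floxed and -0.08 (adjusted p = 0.923) in delta against wild-type. Sec11c, a catalytic subunit, had 10.02 in delta 1, 9.85 in delta 3 and 9.99 in delta 4, with delta 2 between delta 4 and delta 1, against 9.95, 10.02 and 9.96 in floxed arrays and 10.02, 9.96 and 10.02 in wild-type arrays. Its 3 groups overlapped, with differences of -0.02 (adjusted p = 0.921) in floxed and -0.04 (adjusted p = 0.944) in delta against wild-type.

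The oligosaccharyltransferase, which attaches N-linked glycans, was represented by Ddost, Rpn1 and Rpn2. Ddost had log2 levels of 10.40, 10.35, 10.37 and 10.28 in delta arrays, 10.66, 10.58 and 10.63 in floxed arrays and 10.38, 10.27 and 10.45 in wild-type arrays. Floxed arrays lay above all 7 other arrays, and delta and wild-type overlapped. The difference of Ddost was 0.26 (SE 0.07, 95% CI 0.11 to 0.40, adjusted p = 0.111) in floxed against wild-type, -0.01 (adjusted p = 0.983) in delta against wild-type and -0.27 (SE 0.06, 95% CI -0.40 to -0.14, adjusted p = 0.563) in delta against floxed, the last being the smallest p among the 45 genes in that comparison (unadjusted p = 0.000932). Rpn2 had 9.80, 9.89, 9.97 and 9.97 in delta arrays, 9.95, 10.01 and 10.07 in floxed arrays and 9.74, 9.72 and 9.87 in wild-type arrays. Its floxed arrays also lay above wild-type (0.23, adjusted p = 0.187), and delta overlapped both. Rpn1 gave 0.17 (adjusted p = 0.503).

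The stress sensors and effectors differed among themselves in direction. Ppp1r15a (GADD34), the phosphatase subunit that reverses the translation block set by PERK, had log2 levels of 10.30, 9.31, 9.13 and 9.79 in delta arrays, 9.68, 9.70 and 9.20 in floxed arrays and 8.78, 8.71 and 8.77 in wild-type arrays. Every transgenic array lay above every wild-type array, and the spread was 0.52 within delta and 0.28 within floxed against 0.04 within wild-type (SD, n = 4, 3 and 3). The log2 difference of Ppp1r15a was 0.78 (SE 0.25, 95% CI 0.24 to 1.32, adjusted p = 0.202) in floxed and 0.88 (SE 0.23, 95% CI 0.38 to 1.39, adjusted p = 0.287) in delta against wild-type. It passed the threshold in 1 of 21 alternative fits, with floxed and wild-type arrays alone (0.78, adjusted p = 0.0282). It turned to -0.11 (adjusted p = 0.955) with the sex pattern as a covariate. That fit takes the effect of the sex pattern from delta 1 against the other delta arrays, and delta 1 had the highest Ppp1r15a level. The sign change therefore cannot decide whether sex accounts for the difference.

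The 2 sensor kinases had floxed levels below wild-type. Eif2ak3 (PERK) had log2 levels of 10.62, 10.45, 10.35 and 10.51 in delta arrays, 10.24, 10.15 and 10.36 in floxed arrays and 10.44, 10.53 and 10.47 in wild-type arrays. Floxed arrays lay below all wild-type arrays, with delta overlapping both, and the differences were -0.23 (SE 0.08, 95% CI -0.41 to -0.05, adjusted p = 0.252) in floxed against wild-type and 0.23 (adjusted p = 0.702) in delta against floxed. Ern1 (IRE1) had 7.80, 7.74, 7.83 and 7.99 in delta arrays, 7.66, 7.73 and 7.88 in floxed arrays and 7.92, 8.10 and 7.90 in wild-type arrays. It too was below wild-type in every floxed array (-0.21, adjusted p = 0.329). Atf6, the third sensor, had 10.79, 10.73, 10.62 and 11.09 in delta arrays, 10.83, 10.92 and 11.06 in floxed arrays and 10.81, 10.78 and 10.73 in wild-type arrays. Its floxed arrays lay above wild-type by a narrow margin (0.16, adjusted p = 0.571). Atf4, the transcription factor translated when PERK is active, had 9.55, 9.36, 9.32 and 9.43 in delta arrays, 9.39, 9.24 and 9.29 in floxed arrays and 9.14, 9.32 and 9.31 in wild-type arrays. Its RNA differed by 0.16 (adjusted p = 0.660) in delta against wild-type, with overlapping groups.

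**Figure D3:**
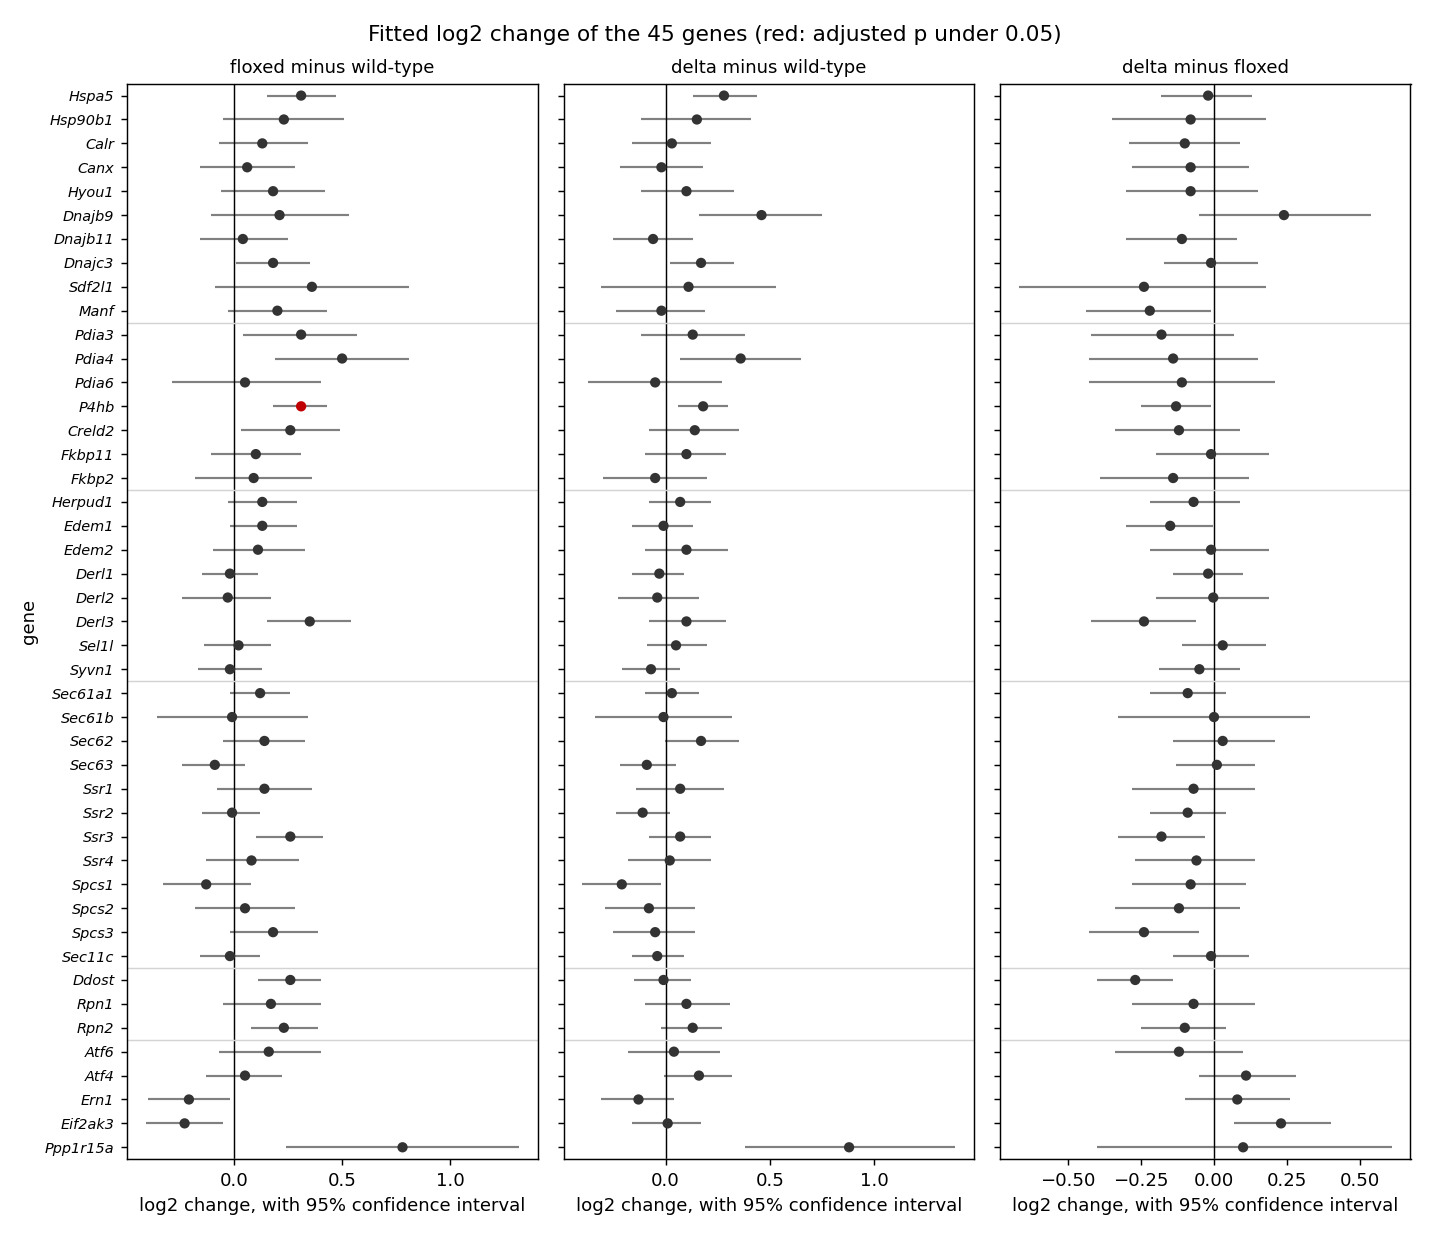
Fitted log2 difference (points) and 95% confidence interval (bars) of the 45 genes in the 3 comparisons, in order of role. Red marks an adjusted p under 0.05, which P4hb reached in floxed minus wild-type, and the lines at 0 show that most intervals include no difference.

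Chaperone genes had a lowest or a highest array in common within each genotype for most members. Delta 1 was the lowest delta array for 9 of the 10 chaperone genes and delta 3 the highest for 7, while delta 1 was lowest for 24.8% and delta 3 highest for 25.1% of all genes. Floxed 1 was the lowest floxed array for 9 of 10 (31.0% of all genes), and wild-type 1 the highest wild-type array for 9 of 10 (24.5% of all genes). The chaperone mean log2 level was 10.36, 10.52, 10.66 and 10.54 in delta, 10.47, 10.68 and 10.62 in floxed and 10.49, 10.33 and 10.37 in wild-type arrays. Delta 1, the only delta array of male pattern, therefore lay within the wild-type range. The other delta arrays lay within the floxed range. For Dnajb9 delta 1 was instead the highest delta array and floxed 3 the lowest floxed array, and for Dnajc3 wild-type 3 was the highest wild-type array.

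The 9 ERSE genes, 5 of which are chaperone genes, were ranked by array as well. Delta 1 was the lowest delta array for 8 of 9 and floxed 1 the lowest floxed array for 8 of 9, against 12 and 13 of the 28 genes whose window lacked the motif. Delta 3 was the highest delta array for 5 of 9 and wild-type 1 the highest wild-type array for 6 of 9, against 11 and 8 of the 28. The floxed minus wild-type median was 0.18 for the 9 and 0.12 for the 28, and the delta minus wild-type median 0.10 and 0.07. No test was made of these descriptions.

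Other stress genes were read beside Ppp1r15a and Dnajb9 in the same arrays. A list of immediate early and stress genes, chosen after values were seen, had 9 of 10 genes measured and a mean log2 level of 10.60, 9.70, 9.60 and 10.02 in delta, 9.92, 10.30 and 9.91 in floxed and 9.42, 9.90 and 9.40 in wild-type arrays. Within delta its order from high to low was delta 1, 4, 2 and 3, which was also the order of Ppp1r15a, while Dnajb9 had delta 3 above delta 2. With this mean as a covariate the floxed minus wild-type difference was 0.37 for Ppp1r15a (adjusted p = 0.482), 0.01 for Dnajb9 (adjusted p = 0.978, against 0.21, adjusted p = 0.587 without it), 0.32 for Hspa5 (adjusted p = 0.243) and 0.31 for P4hb (adjusted p = 0.167). Wild-type 2 had the highest list mean of its group but the lowest Ppp1r15a level.

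**Figure D4:**
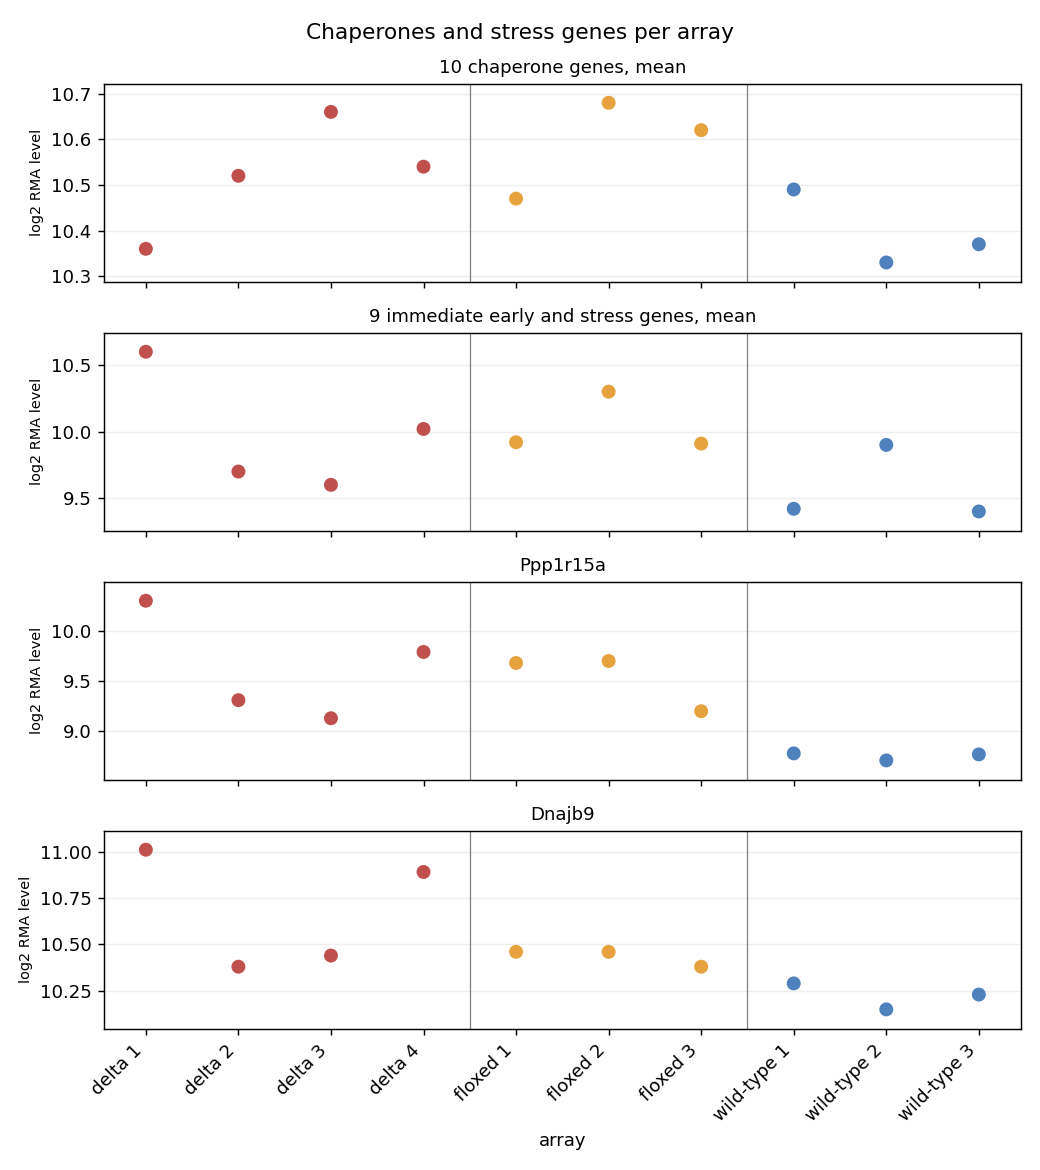
Log2 RMA level per array (x axis: the 4 delta, 3 floxed and 3 wild-type arrays) of the chaperone mean, the immediate early and stress mean, Ppp1r15a and Dnajb9, each on its own vertical axis. Delta 1 is the lowest delta array for the chaperone mean and the highest for the other 3 panels.

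Other genes of the same pathways were read from lists that hold none of the 45. Of 110 measured genes 1 rose and 0 fell in floxed against wild-type in limma at an adjusted p under 0.05. Beside this, 0.552% of all genes passed that threshold in either direction. Another count, at an unadjusted p under 0.05, was 17 higher and 4 lower (15.5% and 3.64%, against 6.14% and 6.63% of all genes). The median was 0.05. The called gene was Slc7a5, an amino acid transporter and ATF4 target, with 0.47 (SE 0.08, 95% CI 0.29 to 0.65, adjusted p = 0.0351) and log2 levels of 9.29, 9.14, 9.29 and 9.19 in delta arrays, 9.51, 9.48 and 9.40 in floxed arrays and 8.92, 8.88 and 9.17 in wild-type arrays. The call of Slc7a5 held in 10 of 21 alternative fits (adjusted p 0.0151 to 0.629). It was lost without any 1 of the floxed arrays, delta 3 or wild-type 1 or 2, and with the sex pattern as a covariate. In delta against wild-type 0 of the 110 were called by limma, beside 0.0752% of all genes. There 3 were higher and 1 lower at an unadjusted p under 0.05 (2.73% and 0.909%, against 3.46% and 4.44% of all genes). In delta against floxed 0 were called, beside 0.00502% of all genes. Here 0 were higher and 7 lower at an unadjusted p under 0.05 (6.36% lower, against 3.22% higher and 3.20% lower among all genes). Among the 22 other folding genes 5 were higher (22.7%) and 1 lower (4.55%) in floxed against wild-type at an unadjusted p under 0.05. The higher ones included Erp44 at 0.29 (adjusted p = 0.129) and Prkcsh, the beta subunit of glucosidase II, at 0.21 (adjusted p = 0.153). Among 25 genes of ER to Golgi transport 3 were, with the cargo receptor gene Lman1 at 0.28 (adjusted p = 0.321).

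The RNAs of 2 transcription factors of the response did not separate the groups. Xbp1, which IRE1 activates by splicing, had log2 levels of 10.46, 10.75, 10.84 and 10.67 in delta arrays, 10.58, 10.83 and 10.75 in floxed arrays and 10.70, 10.64 and 10.66 in wild-type arrays. Its floxed minus wild-type difference was 0.05 (adjusted p = 0.872), and delta 1 was again the lowest delta array. Ddit3 (CHOP) had 8.73, 8.38, 8.55 and 8.45 in delta arrays, 8.37, 8.50 and 8.37 in floxed arrays and 8.47, 8.50 and 8.13 in wild-type arrays. Its difference was 0.16 (adjusted p = 0.771) in delta against wild-type. Gene-level values do not separate spliced from unspliced Xbp1.

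Genes of plasma cells and of other cell types were read beside these results. Jchain, which joins polymeric antibodies, rose in floxed against wild-type by 1.64 (adjusted p = 0.00383), with levels of 7.24, 7.51, 7.22 and 7.10 in delta arrays, 8.43, 8.25 and 8.34 in floxed arrays and 7.17, 6.35 and 6.58 in wild-type arrays. Sdc1 (CD138) fell by 0.51 in the same comparison (adjusted p = 0.0450). The call of Jchain held in 20 of 21 alternative fits and was lost with the sex pattern as a covariate (1.68, adjusted p = 0.248). That of Sdc1 held in 9 of 21 (adjusted p 0.0177 to 0.602) and was lost, among others, without any 1 of the floxed arrays, delta 1 or 3, or wild-type 1 or 2. Prdm1, the plasma cell repressor Blimp-1, was at 0.22 (adjusted p = 0.491) in floxed against wild-type. The 11 plasma cell genes together had mean log2 levels of 8.67 to 8.80 in delta, 8.86 to 8.96 in floxed and 8.65 to 8.78 in wild-type arrays. These means include Jchain, whose difference was by far the largest. In floxed against wild-type 7 of the 11 were above 0 (63.6%, against 41.9% of all genes) and 4 below, from -0.51 for Sdc1 to 1.64 for Jchain. In sorted bulk cells, more cells of a type and more RNA per cell cannot be told apart.

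T cell genes (13 of 16 measured) had mean log2 levels of 7.07 to 7.38 in delta, 7.16 to 7.78 in floxed and 7.05 to 7.26 in wild-type arrays, with 7.78, 7.16 and 7.62 in floxed 1, 2 and 3. Erythroid genes (9 of 12) had 6.98 to 7.58, 7.63 to 8.03 and 7.15 to 7.50, NK cell genes (10 of 10) 5.79 to 6.20, 6.08 to 6.54 and 5.84 to 5.97, and myeloid genes (12 of 12) 6.85 to 7.23, 6.98 to 7.29 and 6.73 to 6.80, in the same order of groups. In a fit that added this T cell mean, chosen after values were seen, the floxed minus wild-type difference was 0.39 for Hspa5 (adjusted p = 0.177), 0.57 for Pdia4 (adjusted p = 0.320), 0.29 for P4hb (adjusted p = 0.230) and 0.25 for Ddost (adjusted p = 0.340). The part of erythroid, NK cell and myeloid genes was not tested.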

How the data were processed

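Total RNA from sorted B cells was measured on 10 arrays. Per the submitters' processing notes the authors used RMA, and the deposited intensity values lie on a linear scale (4.46 to 26808), so log2 was taken. Neither the RMA software nor the annotation build is stated in the sources read. Of 34760 probe sets, 21640 carry 1 symbol alone. The brightest of them by mean stood for each gene, giving 19937 genes. limma 3.58.1 in R 4.3.3 fitted a mean per group over all 10 arrays (lmFit, eBayes, 11.3 degrees of freedom in total), with Benjamini-Hochberg adjustment over 19937 genes, a threshold of 0.05 and 95% confidence intervals (CI). The procedure was tested on simulated data. The number of arrays limits the precision.

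The 45 genes and the other lists were chosen with earlier results of these data known. Of the 45 genes, values in every array are given for those past the threshold and for the 10 smallest p-values in each comparison. They are also given for 16 genes fixed by role. Genes of the other lists are named where past the threshold. Xbp1, Ddit3, Bcl6, Cd79a, Jchain, Sdc1 and Prdm1 were fixed as well, though Bcl6, Cd79a, Sdc1 and Prdm1 are not given array by array. Erp44, Prkcsh and Lman1 lie outside that rule, picked once their values were known, as were the within-group array orders and the promoters printed. Alternatives varied the normalization, dim genes (mean log2 under 6), gene unit, prior, array weights, arrays fitted, replicate block, sex pattern (Xist against the mean of 3 Y-linked genes) and single arrays, and 2 covariates were added after seeing the data.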

Additional observations from a re-analysis of the deposited data

Results flagged for a closer look

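In the 4 delta arrays, 1 array lay far from the other 3, relative to the range of the group, for 1 of the 45 genes and for some values given beside them. In all 88 items were examined. Chance alone gives about 1 in 20 such cases, a share that 1 of 45 does not exceed. The other items were not set against that share, and the sex-linked genes among them vary together. Sec11c had a log2 level of 9.85 in delta 3 and 9.99 to 10.02 in the other delta arrays (gap over range 0.850). The mean of the 9 other oligosaccharyltransferase genes was 10.27 in delta 3 and 10.16 to 10.17 in the others (0.917). The mean of 25 ER to Golgi transport genes was 9.59 in delta 1 and 9.67 to 9.68 in the others (0.877). The mean of 12 myeloid genes was 7.23 in delta 4 and 6.85 to 6.90 in the others (0.877). Delta 1 stood apart in the sex-linked genes, with gaps over range of 0.971 for Xist, 0.974 for Eif2s3y, 0.942 for Kdm5d and 0.960 for Uty. Groups of 3 arrays were not examined in this way.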

How the results depend on the processing

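In floxed against wild-type, 1 of the 45 genes passed the threshold; 0 passed after repeated quantile normalization, with the replicate block, with the sex pattern as a covariate and with either covariate added after seeing the data (T cell mean, immediate early mean), and 0 to 1 passed when single arrays were left out. The only array whose omission left a call was delta 4. With floxed and wild-type arrays alone in the fit, the called gene was Ppp1r15a in place of P4hb. In both other comparisons 0 of 45 passed under every alternative run. The median log2 difference of the 45 kept its sign throughout. In floxed against wild-type it was 0.13, 0.09 to 0.16 with single arrays left out and 0.19 with the sex pattern as a covariate. In delta against wild-type it was 0.04 and 0.02 to 0.08 with single arrays left out. In delta against floxed it was -0.08, -0.12 to -0.05 with single arrays left out and -0.14 with the sex pattern as a covariate. Genes higher at an unadjusted p under 0.05 in floxed against wild-type numbered 11, and 8 to 18 over 21 alternatives; genes lower in delta against floxed numbered 7, and 3 to 11. That last count was 3 without delta 1 or floxed 3, and 4 without delta 2 or floxed 2. Counts over all genes moved more, from 110 to between 2 and 240 in floxed against wild-type, from 15 to between 0 and 23 in delta against wild-type and from 1 to between 1 and 10 in delta against floxed. Replicate numbers are shared between groups, and the labels do not say whether they pair the samples. Over all genes, deviations of same-numbered arrays correlated at -0.08 to 0.12, which with so few arrays cannot decide it. The replicate block left P4hb at 0.31 (adjusted p = 0.0933). With the sex pattern as a covariate, its effect is estimated from delta 1 alone against the other delta arrays. With 3 or 4 arrays a group, the intervals of single genes allow differences of the size seen in P4hb for many genes that did not pass.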
